A study of Mus musculus with 4 samples.

Results

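The 39 Hox genes of the mouse lie in 4 clusters, Hoxa with 11 genes on chromosome 6, Hoxb with 10 on chromosome 11, Hoxc with 9 on chromosome 15 and Hoxd with 9 on chromosome 2. Members were all probes of the arrays, control spots excluded, whose gene name is Hox followed by a cluster letter and a number. This gave 39 genes, read by 52 of 56601 probes, among 26781 named genes in all. Of the 39 genes, 29 had 1 probe, 7 had 2 and 3 had 3. For each gene the probe with the highest mean signal was taken, and the other probes are given where they were detected.

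Hox genes encode homeodomain transcription factors that give cells their position along the body axis. Within a cluster, genes of low paralog number, at the 3′ end, are expressed earlier and further forward in the embryo, and retinoic acid is a known inducer of these genes. The neural crest cells of the mandibular arch are known as a Hox-free population, whereas Hoxa2 marks the crest of the second arch behind it and specifies its skeleton. Much of the muscle of the tongue comes from occipital somites, which lie further back.

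All RNA came from embryos of ICR mice, an outbred stock, for which the labels name no mutation and no agent. The sample descriptions give several embryos per array, while the extraction text speaks of single animals, so how the RNA was pooled is not settled by the labels. There were 4 groups, each read on 1 Cy3-labelled single-colour array. MMA is the medial part of the mandibular arch at stage E9.5, from 12 embryos. LLS stands for the lateral lingual swellings, the outgrowths that form the tongue, and LMA for the lateral part of the same arch, both dissected at stage E11.5 from 4 embryos. T is tongue tissue of stage E14.5, also from 4 embryos. With 1 array per tissue there is no replicate check, no test and no p-value for any difference, and the number of arrays limits the precision. Stage and dissected structure change together in each comparison except LLS against LMA. In pooled tissue, fewer cells of a type and less RNA per cell cannot be told apart.

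Signals were well above background, the scanner software's stricter call of detection, for 57.0% to 62.9% of spots on the 4 arrays, lowest in MMA and highest in LMA. The 75th percentile of signal was 422 in MMA, 456 in LLS and 507 in LMA, with 491 in T, and 0 spots were saturated. All 16 first arch mesenchyme markers were detected in MMA, LLS and LMA, and all 12 skeletal muscle markers in T. The extraction text of the labels mentions cerebellum. Of the 12 markers of that tissue, 5, 4, 5 and 4 were detected in MMA, LLS, LMA and T. Pcp2, Cbln1, Barhl1 and Zic1 were detected on all 4 arrays and En2 in MMA and LMA, while the other 7, Atoh1 and Neurod1 among them, were not well above background on any. What this says of the source of the RNA was not tested.

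The sequences of 3 genes are shown first, because the reading of their values depends on which probe is used. Each line gives the first 30 of the 60 bases of a probe, as the scanner files give it. The Hoxb3 probes lie on chromosome 11 (mouse build mm9, per the file headers, plus strand) at 96202860 to 96202919 and, in separate blocks, at 96202427 to 96205434, in the order of the lines. These are the dimmer probes of that gene.
Hoxb3, dimmer probe in 1 block: ttttaaagtcttggaagatggcctatcctc
Hoxb3, dimmer probe in separate blocks: atattatgtctgcctgttctcccctcgtcg

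The Hoxa3 probes lie on chromosome 6 (mm9, minus strand) at 52119087 to 52119146, 52119744 to 52119803 and 52149150 to 52149208. The Hoxd8 probes lie on chromosome 2 (mm9, plus strand) at 74545171 to 74545230 and 74545922 to 74545981. Lines follow that order, with no base in capitals.
Hoxa3, brightest probe: gctagatttgttttgagagttttacattcc
Hoxa3, middle probe: ggtaatgcgtttttatagtttatgtgacgt
Hoxa3, distant probe: caacataaatctacagaagtcccagattca
Hoxd8, dimmer probe: gtttgcctcaacaacataaacttcctaatg
Hoxd8, brightest probe: aaatgagccctgagtgtaaacagccgctcc

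The GC content of the 52 Hox probes ranged from 30% to 55% with a median of 40%. No pair of probes of different Hox genes shared a run of more than 12 bases on either strand, which was found between Hoxd10 and Hoxc12.

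Hox genes gave little signal in all 4 tissues. The highest processed signal of any Hox probe was 262, for Hoxb3 in LMA, and the highest in the other tissues were 215 in T, 185 in MMA and 91.1 in LLS. Well above background were 7 of 39 Hox genes in MMA, 8 in LLS and 12 in LMA, with 11 in T. Of all named genes the same call was made for 58.7% in MMA, 61.3% in LLS and 64.0% in LMA, with 62.1% in T. In all, 15 Hox genes were detected in at least 1 tissue, 5 of them in all 4, and 24 in 0 tissues. Signals of these 24 genes lay between 4.03 and 22.5, so only a limit can be given for them.

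Most detected genes in each tissue were of low paralog number. In groups 1 to 4 there were 4 of 12 genes detected in MMA, 6 in LLS and 8 in LMA, with 6 in T. In groups 5 to 8 there were 2, 1, 2 and 3 of 11 genes, and in groups 9 to 13 there were 1, 1, 2 and 2 of 16. By cluster, Hoxa and Hoxb held 6 of the 7 detected genes in MMA, 7 of 8 in LLS, 8 of 12 in LMA and 10 of 11 in T. No gene of the Hoxd cluster was detected in MMA or LLS, and none of the Hoxc cluster in T. The lowest signal called well above background on an array was 22.2 in MMA, 21.3 in LLS and 20.1 in LMA, with 26.7 in T, so a dim gene met the strictest limit in T.

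**Figure D1:**
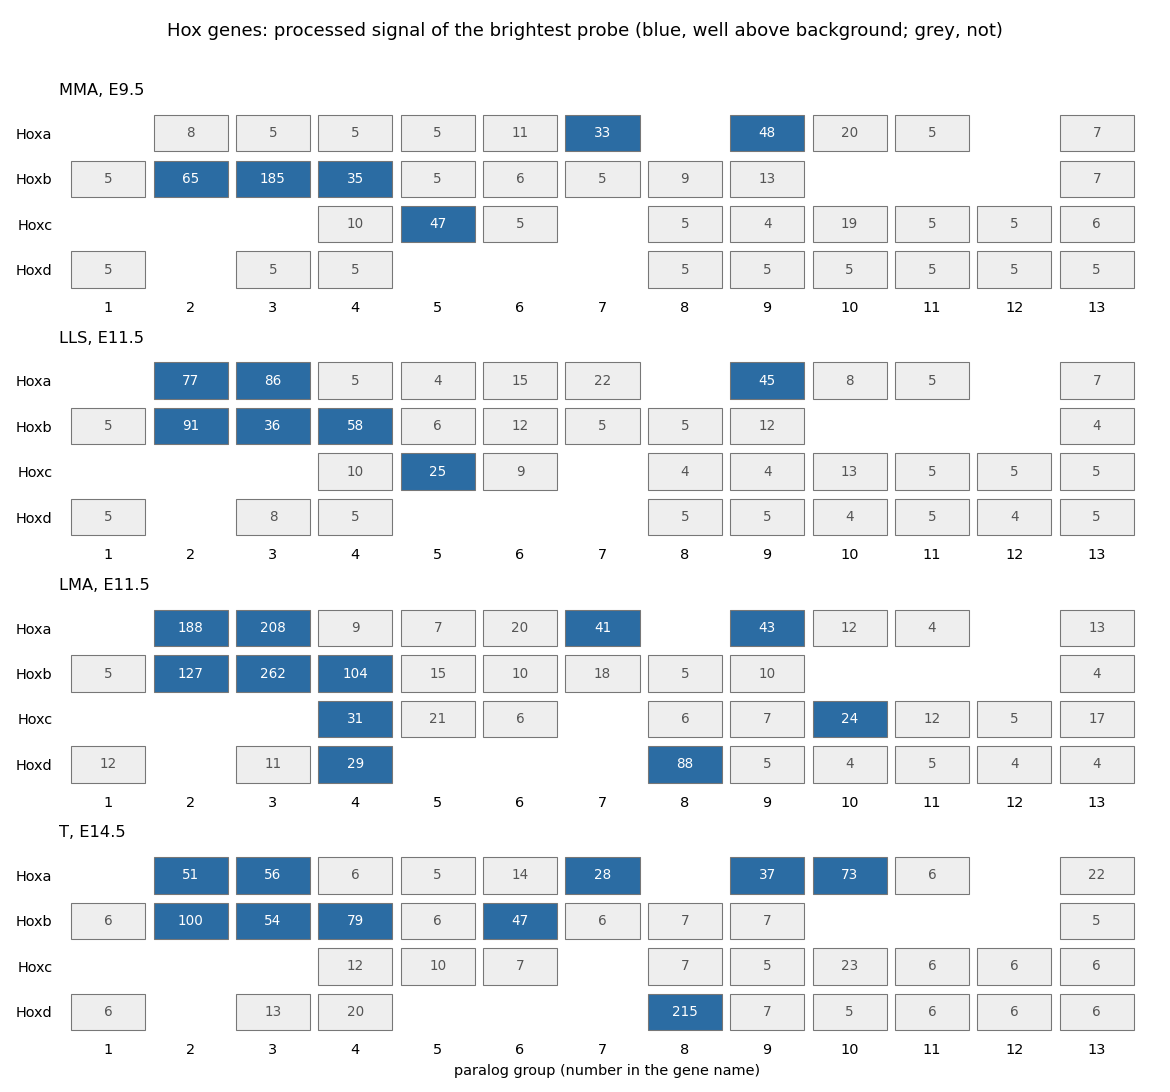
Processed signal (number in each box) of the brightest probe of 38 Hox genes, by paralog group along the horizontal axis and cluster along the vertical, in 1 panel per tissue. Blue boxes are well above background and grey boxes are not, and the blue boxes gather at the lower paralog groups on the left.

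Of the group 1 genes, which pattern the early hindbrain, Hoxb1 had signals from 4.56 to 5.93 and Hoxd1 from 4.55 to 11.9, and neither was well above background anywhere.

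Hoxa2, the selector gene of the second arch, had signals of 8.34 in MMA, 77.3 in LLS and 188 in LMA, with 51.1 in T. It was not well above background in MMA and was detected in the 3 later tissues, highest in LMA. Hoxb2, its paralog in the Hoxb cluster, was detected in all tissues at 65.2 in MMA, 91.1 in LLS and 127 in LMA, with 99.6 in T, a narrow range of at most 1.63-fold after scaling. Another probe given under the name Hoxb2, placed on the opposite strand, read 11.1, 19.1, 31.3 and 38.6 in the same order and passed the call in LMA and T.

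In group 3, whose genes act in the pharyngeal arches behind the second, Hoxa3 read 5.30 in MMA, 86.3 in LLS and 208 in LMA, with 56.0 in T by its brightest probe. This order of tissues is that of Hoxa2. The middle probe of Hoxa3, 597 bases away on the chromosome, read 4.93, 4.71, 11.8 and 6.19 in the same order, and the distant probe 17.4, 9.62, 4.45 and 7.48. Neither was well above background on any array, so the Hoxa3 values rest on 1 of 3 probes. Between the bright and the middle probe, 270 bases from the bright one, lies the probe of Hoxaas2, a noncoding gene of the cluster whose probe is on the opposite strand. Hoxaas2 read 34.3 in MMA, 76.4 in LLS and 147 in LMA, with 65.7 in T, with the same order of tissues.

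Hoxb3 had 3 detected probes, and they do not give 1 pattern. The brightest probe read 185 in MMA, 36.3 in LLS and 262 in LMA, with 54.5 in T, high in the arch samples and low in LLS and T. The dimmer probe in separate blocks read 56.7, 77.0, 81.7 and 55.1 in the same order, and the dimmer probe in 1 block 40.5, 45.5, 52.8 and 64.1. For LLS minus LMA the difference of log2 signal was -2.70 by the brightest probe, 0.07 by the probe in separate blocks and -0.06 by the probe in 1 block. For LLS minus MMA it was -2.46, 0.33 and 0.06. A 2-fold difference of Hoxb3 was therefore seen by 1 of its 3 probes.

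**Figure D2:**
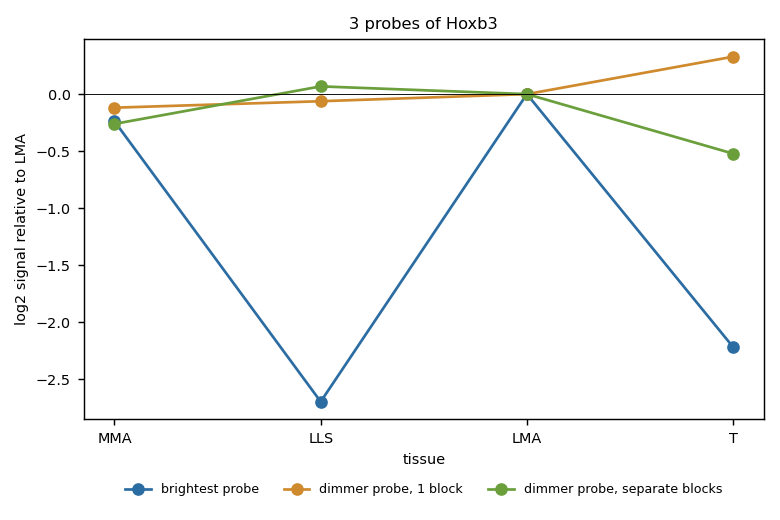
Log2 signal in each tissue relative to LMA, after scaling, for the 3 probes of Hoxb3, all well above background in each tissue. The brightest probe is at -2.70 in LLS and the dimmer probes at 0.07 and -0.06.

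Hoxd3 read 4.94 in MMA, 7.68 in LLS and 11.4 in LMA, with 12.7 in T and was not well above background. Of the group 4 genes, Hoxb4 was detected in all tissues, at 34.9 in MMA, 57.9 in LLS and 104 in LMA, with 78.8 in T, lowest in MMA and highest in LMA. Hoxc4 was detected in LMA alone, at 30.7, against 10.3 in MMA, 9.62 in LLS and 11.9 in T. Hoxd4 was likewise called in LMA alone, at 29.3, with 4.82 in MMA, 4.56 in LLS and 19.8 in T. Both lay close to the detection limit, and their bounds against LLS were at least 1.29-fold and at least 1.24-fold. Hoxa4 stayed between 4.73 and 8.76.

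Groups 5 to 8 had 4 detected genes. Hoxc5 was detected in MMA (46.7) and LLS (24.7) and not in LMA (21.1) or T (10.5). Hoxb6 was detected in T alone, at 46.6, against 6.07 in MMA, 11.8 in LLS and 10.1 in LMA. Hoxa7 lay near the limit throughout, at 33.2 in MMA, 21.6 in LLS and 40.8 in LMA, with 27.6 in T, and passed the call everywhere except LLS.

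Hoxd8 was the group 8 gene with signal. Its brightest probe read 5.03 in MMA, 4.76 in LLS and 88.2 in LMA, with 215 in T, and its other probe, 691 bases away, read 5.60, 4.54, 46.4 and 57.5. By both probes it was well above background in LMA and T and not in MMA or LLS. Of the Hoxd genes on either side of it, Hoxd9 stayed between 5.04 and 6.62 in the 4 tissues, and Hoxd4 passed the call in LMA alone.

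In groups 9 to 13, Hoxa9 was detected in all tissues by its brightest probe, which spans 1105 bases of the chromosome, with an even 48.1 in MMA, 44.6 in LLS and 43.2 in LMA, with 36.7 in T. A second probe passed the call in LLS (24.3) and LMA (23.0), and the remaining probe read between 4.99 and 6.37. Hoxa10 was detected in T alone, at 73.3, against 19.5 in MMA, 7.91 in LLS and 11.9 in LMA. Its other probe read 5.07 to 6.26, so this value rests on 1 of 2 probes. Hoxc10 passed the call in LMA at 23.6 and not in T at 23.5. None of the 9 genes of groups 11 to 13 was detected, the highest being Hoxa13 in T at 22.5.

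**Figure D3:**
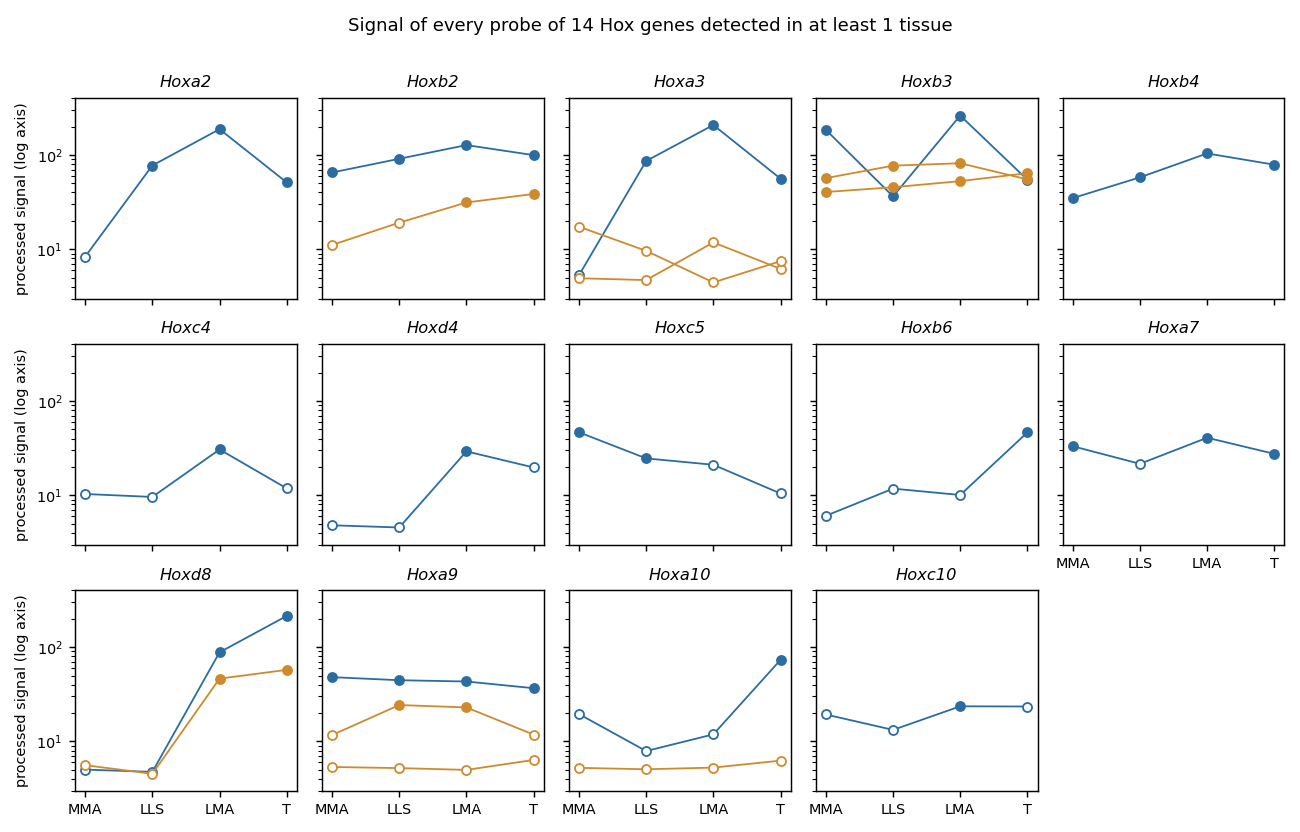
Processed signal (log axis) in the 4 tissues for every probe of 14 Hox genes detected in at least 1 tissue. Blue is the brightest probe of the gene and orange any other; filled circles are well above background. Hoxa2 and Hoxa3 lie at 8.34 and 5.30 in MMA and at 188 and 208 in LMA, Hoxd8 appears in LMA and T by both probes, and the probes of Hoxb3 and Hoxa3 disagree.

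LLS was compared with LMA, at the same stage, to set the tongue-forming outgrowths against the lateral arch. Differences are of log2 signal after subtraction of each array's 75th percentile, written as first tissue minus second, where 1 is 2-fold. Of 13 Hox genes that could be compared, 5 were lower in LLS by 2-fold or more and 0 were higher by that size, while 1 (Hoxc10) had no fold. Of the 17543 genes compared in all, 6.53% differed by that size in either direction, 3.63% upward and 2.90% downward. Among the 5 were Hoxa2 (-1.13), Hoxa3 (-1.12, by 1 of 3 probes), Hoxb3 (-2.70, by 1 of 3 probes) and Hoxd8 (lower by at least 3.72-fold, a bound). By its other probe the bound of Hoxd8 was at least 1.96-fold, so its place among the 5 rests on the brightest probe. With the median over its probes Hoxa3 was at 0.24, which is the gap between the detection limits of LLS and LMA and not a measured value. The median of the compared Hox genes with a fold was -0.73 and that of all genes 0.0046. Hoxc4, Hoxd4, Hoxa7 and Hoxd8 were detected in LMA and not in LLS, so their values could only be negative. The value of Hoxc5, detected in LLS and not in LMA, could only be positive. The Hox median is thus partly set by the detection rule. The log2 error of a difference given by the scanner software was 0.22 for Hoxa2 and 0.22 for Hoxa3. Among Hoxa2, Hoxa3, Hoxb3 and Hoxd8, Hoxb3 stayed past 2-fold with normexp background correction, and Hoxb3 and Hoxd8 with cyclic loess. Normexp was run with an added offset of 50, which by itself shrinks the folds of signals as dim as these, here and in the comparisons below.

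Markers of other cell types differed between these tissues as well. By 2-fold or more, all 11 skeletal muscle markers compared and 5 of 10 endothelial markers were lower in LLS, and 6 of 9 oral epithelium markers higher. Of 16 first arch mesenchyme markers 8 were lower by that size and 4 higher, with a median of -0.97. The summed signal of the muscle list, in units of the 75th percentile, was 15.5 in LLS and 52.9 in LMA, that of the endothelial list 12.0 and 23.4, and that of the epithelial list 75.3 and 26.1. Hindbrain and motor neuron markers numbered 6 of 12 detected in LLS and 7 of 12 in LMA, with summed signals of 2.40 and 1.88. Phox2a and Tbx20 were not well above background in either. The part of these cell types in the Hox values was not tested.

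LMA was compared with MMA over the same arch from E9.5 to E11.5, where the dissected region differs too. Of 13 Hox genes compared, 5 were higher in LMA by 2-fold or more and 1 lower. Of 17541 genes 17.8% differed by that size, 10.6% upward and 7.20% downward. Hoxa2 was at least 7.04-fold and Hoxa3 at least 7.80-fold higher, Hoxd8 at least 3.31-fold and Hoxb4 2.48-fold (1.31, software error 0.30). The other probe of Hoxd8 gave a bound of at least 1.74-fold, short of 2-fold. Hoxc5 was lower by at least 2.66-fold. Each of these bounds could only point to the tissue where the gene was detected. With normexp, Hoxa2 and Hoxa3 alone kept a 2-fold size. The Hoxa3 value rests on 1 of 3 probes. By 2-fold or more, 10 of 11 skeletal muscle, 7 of 8 muscle progenitor (median 3.64) and 9 of 11 macrophage markers were higher in LMA. Of 9 oral epithelium markers 5 were lower and 1 higher, and of 16 first arch mesenchyme markers 6 were lower and 5 higher. Their part in the Hox values was not tested.

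LLS was also compared with MMA, where fewer Hox genes could be compared. Of these 9 genes, 2 were higher in LLS by 2-fold or more and 2 lower. Of 16929 genes 15.3% differed by that size, 9.71% upward and 5.62% downward. Hoxa2 was at least 3.22-fold and Hoxa3 at least 3.60-fold higher. Both were detected in LLS and not in MMA, so they could only count as higher. Hoxc5 (-1.03) and Hoxb3 (-2.46, by 1 of 3 probes) were lower. With the percentile taken over probes detected on all arrays, 2 were higher and 1 lower, since Hoxc5 fell short of 2-fold, and with normexp Hoxb3 alone was past it. With the median over probes, Hoxa2 and Hoxc5 alone were. Markers moved here too. By 2-fold or more, 9 of 10 skeletal muscle, 6 of 8 muscle progenitor, 8 of 11 macrophage and 5 of 11 neuron markers were higher in LLS, and of 16 first arch mesenchyme markers 6 were lower and 3 higher. Their part in the Hox values was not tested. LLS was the shared sample of this comparison and the previous LLS comparison, and MMA of this and the LMA comparison, so their values are not independent.

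T was compared with LLS, from E11.5 to E14.5. Of 12 Hox genes compared, 3 were higher in T by 2-fold or more and 0 lower. Of 17547 genes 18.9% differed by that size, 12.8% upward and 6.04% downward. All 3 were bounds: Hoxd8 at least 9.35-fold (at least 2.50-fold by its other probe), Hoxa10 at least 3.20-fold and Hoxb6 at least 2.03-fold higher. These genes were detected in T and not in LLS, so they could only count as higher. The split of 3 to 0 is therefore no measure of direction. Hoxa2 was at -0.70 and Hoxa3 at -0.73, the latter by 1 of 3 probes. With the median over its probes Hoxa3 was at 0.22, which is the gap between the detection limits of T and LLS and not a measured value. Hoxd8 alone stayed past 2-fold with normexp. Hoxb6 fell short of it with quantile normalization (0.82) and in the authors' value table (0.82), and Hoxa10 with the median over its probes (0.95). Set against LMA, T was 2.51-fold higher for Hoxd8 by its brightest probe and at least 3.77-fold higher for Hoxa10. It was lower by 3.56-fold for Hoxa2 and 3.59-fold for Hoxa3. The other probe of Hoxd8, detected in both tissues, read 46.4 in LMA and 57.5 in T, a much smaller difference. All 12 skeletal muscle markers were at least 2-fold higher in T than in LLS, with summed signals of 1491 and 15.5. Of 11 hindbrain and motor neuron markers 6 were higher by that size and 1 lower. Their part in the Hox values was not tested.

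**Figure D4:**
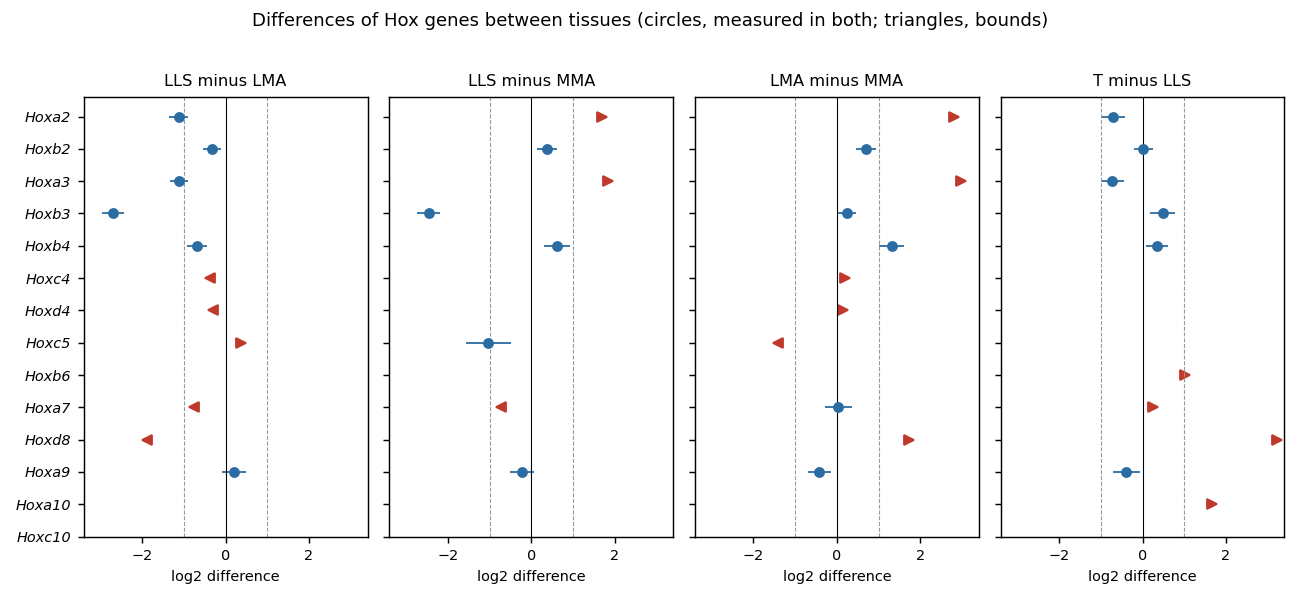
Log2 differences of 14 detected Hox genes in 4 comparisons, by the brightest probe of each gene. Circles are genes detected in both tissues, with the error given by the scanner software as bars; triangles are bounds that point away from 0; dashed lines mark 2-fold. In LLS minus LMA 4 of the genes drawn lie past 2-fold on the low side, and Hoxd8 is a bound in 3 of the 4 panels.

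Spot error is large at such signals. Probes printed 10 times gave an SD of 0.57 for the log2 difference of single spots with signals of 20 to 60, from 5 probe and array pairs. The SD was 0.19 for signals of 60 to 300, from 27 pairs, and 0.08 above 300, from 1093 pairs. The difference of Hoxa2 or Hoxa3 between LLS and LMA, both with signals over 60, was thus several times the spot SD. That of Hoxc5 between LLS and MMA, -1.03, lay in the range where the SD was 0.57. This error covers repeated spots within an array, not differences between arrays or between pools of embryos.

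Noncoding genes of the clusters were present as 7 of 17 listed. Hoxaas2 was 1.04 higher in LLS than in MMA and 1.83 higher in LMA than in MMA. Hoxaas3 was detected in LLS (43.9), LMA (42.0) and T (74.6) and not in MMA (15.5), by 1 of 2 probes. Hoxb5os was detected in all tissues at 184 in MMA, 113 in LLS and 133 in LMA, with 160 in T, by 1 of 2 probes. That probe lies between those of Hoxb7, not detected, and Hoxb6, detected in T alone. Halr1, a noncoding gene at the 3′ end of the Hoxa cluster, was detected in T alone at 51.2, with 5.22, 4.99 and 4.87 elsewhere. Hottip, at the other end of the cluster, passed the call in LMA at 27.3.

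Genes that act with or on Hox genes were mostly abundant. The TALE cofactors, the Meis, Pbx and Prep homeodomain proteins that bind DNA beside Hox proteins, had 8 of 9 members detected in MMA, 9 in LLS and 9 in LMA, with 8 in T. For LLS minus LMA 0 of 9 differed by 2-fold, with Meis1 at -0.33, Pbx3 at -0.49 and Meis2 at 0.73. Pknox2 was lower in LLS than in MMA (-1.30) and Meis2 lower in T than in LLS (-1.61), each the 1 member of 9 past 2-fold. Meis1 read 3350 in MMA, 4896 in LLS and 6828 in LMA, with 4455 in T.

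Of the 16 Polycomb and trithorax genes, which keep Hox clusters silent or active, all were detected in every tissue. None of the 16 differed by 2-fold in LLS minus LMA, LLS minus MMA or LMA minus MMA, and 1, Cbx2 (-1.80), was lower in T than in LLS. The median was 0.11 for LLS minus LMA and -0.45 for T minus LLS, where that of all genes was 0.0046 and -0.08.

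Among inducers and regulators of the clusters, Aldh1a2, which makes retinoic acid, read 11.1 in MMA, 2582 in LLS and 2585 in LMA, with 377 in T. It was at least 6.75 higher in LLS and at least 6.60 higher in LMA than in MMA on the log2 scale, and differed by 0.15 between LLS and LMA. The retinoic acid receptor gene Rarb was higher in LLS (1.84) and LMA (1.14) than in MMA. Cyp26a1, which degrades retinoic acid, was at least 3.50 higher in LLS than in LMA, and Cyp26b1, which degrades it too, differed by -0.16. Against MMA, Cyp26b1 was 4.46 higher in LLS and 4.62 higher in LMA. Cyp26a1 was 0.71 higher in LLS and at least 2.80 lower in LMA than in MMA. Nr6a1 differed by -5.47 between LMA and MMA. Of the caudal genes, Cdx1 was detected in MMA (80.1) and LMA (21.1), 4.56-fold lower in LMA, and Cdx2 and Cdx4 were not well above background anywhere. In the list of 14, 2 of 11 compared were higher by 2-fold or more and 0 lower in LLS minus LMA, 5 and 2 of 11 in LLS minus MMA, 4 and 3 of 11 in LMA minus MMA, and 3 and 4 of 10 in T minus LLS. The hindbrain gene Egr2, a known regulator of Hox genes there, was 2.60 higher in T than in LLS.

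Of the homeobox genes next to or related to the clusters, Evx1, beside Hoxa13, was detected in MMA alone at 31.2 and Evx2, beside Hoxd13, in all tissues at 164 to 171. Gbx2 read 264 in MMA and 13.6, 6.10 and 5.76 in LLS, LMA and T. It was the 1 member of 6 past 2-fold in LLS minus MMA and in LMA minus MMA, lower in both.

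Promoters were examined for 4 of the genes that were higher in LMA than in MMA. Windows were taken from RefSeq (GRCm38.p6) as the 250 bases before a gene's start, and were matched for 22 of 39 Hox genes with 24 windows. The windows of Hoxa2, Hoxa3, Hoxb4 and Hoxd8 are printed 5′ to 3′ on the gene's strand, in lower case, with capitals at TGATNNAT, the site bound by Hox and Pbx proteins together, searched on both strands. They lie at chr6:52164832-52165081 (minus strand), chr6:52213068-52213317 (minus), chr11:96318017-96318266 (plus) and chr2:74704365-74704614 (plus).
Hoxa2 promoter: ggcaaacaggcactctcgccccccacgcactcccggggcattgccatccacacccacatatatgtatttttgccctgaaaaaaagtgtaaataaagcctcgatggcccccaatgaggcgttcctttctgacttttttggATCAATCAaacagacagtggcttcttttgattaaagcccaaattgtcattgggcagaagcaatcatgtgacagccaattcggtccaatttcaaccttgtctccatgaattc
Hoxa3 promoter: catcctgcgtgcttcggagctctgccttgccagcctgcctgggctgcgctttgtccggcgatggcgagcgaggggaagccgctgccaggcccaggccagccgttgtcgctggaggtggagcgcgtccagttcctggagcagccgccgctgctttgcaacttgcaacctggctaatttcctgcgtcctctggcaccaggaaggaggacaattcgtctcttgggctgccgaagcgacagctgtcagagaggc
Hoxb4 promoter: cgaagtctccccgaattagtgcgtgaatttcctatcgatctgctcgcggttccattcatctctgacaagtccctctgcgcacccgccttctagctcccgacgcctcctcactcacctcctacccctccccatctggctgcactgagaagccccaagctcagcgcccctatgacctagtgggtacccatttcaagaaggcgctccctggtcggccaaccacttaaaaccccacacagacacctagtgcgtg
Hoxd8 promoter: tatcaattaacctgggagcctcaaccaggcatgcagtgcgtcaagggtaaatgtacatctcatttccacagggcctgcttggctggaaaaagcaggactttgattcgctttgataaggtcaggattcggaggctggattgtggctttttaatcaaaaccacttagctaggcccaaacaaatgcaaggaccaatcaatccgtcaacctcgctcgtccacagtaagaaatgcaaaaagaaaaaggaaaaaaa

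TGATNNAT was found once among these 4 windows, in Hoxa2, 111 bases before the start. Over all Hox windows it was present in 4 of 24 (Hoxa2, Hoxb1, Hoxb8 and Hoxd11), or 16.7%, against 7.68% of all 32851 windows of the same length. TGACAG, a site of Meis proteins, was in 2 of 24 (Hoxa2 and Hoxa3) and in 15.9% of all windows. TAATTA, a core bound by many homeodomains, was in 2 of 24, both of Hoxd11, and in 4.84% of all. Direct repeats of AGGTCA with 5 bases between, a retinoic acid receptor site, were in 0 of 24 Hox windows and in 3 of all, and those of AGTTCA in 0 and 7. The median GC content was 58.6% in Hox windows and 52.4% in all, and the median number of CG pairs 12.5 and 6. These matches describe the letters of the windows only.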

How the data were processed

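The labels' protocols name TRIzol, a Promega column kit and an Agilent low-input labelling kit. Intensity in the scanner files was produced by the authors with Agilent Feature Extraction (10.7.1.1 per the file headers, 9.5.1.1 per the submitters' processing notes), with spatial and multiplicative detrending switched on. The deposited value table holds linear intensity too, and its normalization is not given in the sources used here. It served as an alternative, and its array differences correlated with those of the scanner files at 0.972 to 0.991 over 26759 probes.

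Flagged spots were left out (0 of Hox probes) and spots of 1 probe averaged. For 46 of 52 Hox probes the RefSeq accession gave the same symbol, and 6 had no match. Log2 of the processed signal, less the 75th percentile of its array, was compared. A value not well above background was raised to the lowest value called well above background on that array, unless it was higher, and its difference is a bound. A bound with a fold under 1 was left out, so a gene detected in only 1 tissue of a pair could only count as higher there. No test was possible with 1 array per tissue. Alternatives used limma 3.58.1 (R 4.3.3), with an offset of 50 in normexp. Counting was tested on simulated data with changes planted in bright genes only, so dim signals such as those of most Hox genes, and bounds, were not covered. Hox genes and members of the gene lists could be named, with the brightest probe per gene. Members and lists were chosen with earlier results of these data known. A Hox gene, a regulator and a probe sequence are not reported here.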

Additional observations from a re-analysis of the deposited data

How the results depend on the processing

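Counts of Hox genes 2-fold or more apart, in the order LLS minus LMA, LLS minus MMA, LMA minus MMA and T minus LLS, were 5, 4, 6 and 3. They became 2, 1, 2 and 1 with normexp, and also 2, 1, 2 and 1 when 4-fold was asked. The offset of 50 added in normexp shrinks the folds of dim genes, so its lower counts were in part fixed in advance. Without filter or floor for dim probes they were 12, 6, 14 and 6, and with the median over a gene's probes 3, 2, 5 and 2. Cyclic loess gave 3 for LLS minus LMA. Quantile normalization, the percentile over detected probes and the authors' value table left each count within 1.5 times, though quantile normalization and the value table lost Hoxb6 in T minus LLS and the percentile lost Hoxc5 in LLS minus MMA. The all-gene median went with cyclic loess from -0.07 to 0.09 in T minus LLS, from -0.09 to 0.05 in LMA minus MMA and from -0.06 to 0.06 in LLS minus MMA. Under the less strict detection call of the software the Hox genes detected were 20 (MMA), 20 (LLS), 31 (LMA) and 22 (T), where the stricter call gave 7, 8, 12 and 11, and taking any probe of a gene changed none of these 4. With the median over its probes Hoxa3 reversed in LLS minus LMA (0.24), where 2 of its 3 probes were not well above background. That value is the gap between the detection limits of the arrays, so it measures no opposite direction of Hoxa3. Over single genes and all alternatives to the main values, 276 values kept their side of 2-fold, 20 lost it, 4 reached it and 1 past 2-fold reversed. Among the 276 were 10 values, of Hoxa3, Hoxa7, Hoxa9 and Hoxb2 and all under 2-fold, that changed sign. No paired analysis was possible because each tissue has 1 array, and no replicate could be left out. All arrays lay on 1 slide. Dim signal limits these results, since 24 of 39 genes have only a limit.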

Other observations

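Marker lists of other cell types also differed between T and LLS. By 2-fold or more, 14 of 16 first arch mesenchyme markers and 7 of 12 blood markers were lower in T. Of 11 macrophage markers 7 were higher in T by that size and 0 lower, and of 10 neural crest and Schwann cell markers 6 were higher and 1 lower. Of 12 neuron markers 5 were higher and 2 lower, and of 9 muscle progenitor markers 5 were higher and 1 lower. Phox2a, a transcription factor of cranial motor and autonomic neurons, read 643 in T and was not well above background in MMA, LLS or LMA.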
